A study of Homo sapiens with 30 samples.

Results

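Translation initiation factor mRNAs were taken here as the protein-coding genes of the GENCODE annotation whose symbols start with EIF and a digit from 1 to 6, leaving out the EIF2AK kinase genes. This rule gave 52 genes of 20046 protein-coding genes, and all 52 had a row in the count files. The data came from U-87 MG, an established human glioblastoma cell line, in which the RNA-binding protein LARP6 was mapped onto RNA by iCLIP, a method that crosslinks a protein to RNA with ultraviolet light and reads out the crosslinked positions. There were 5 pooled stable lines that carried a codon-optimised, myc-tagged LARP6 in a doxycycline-inducible lentiviral vector, and a parental line that carried no variant was the control. The labels give doxycycline at 60 ng/mL for 24 h. The variants were full-length LARP6 (FL), LARP6 without its disordered N-terminal region (ΔNTR), without its C-terminal region (ΔCTR), without the folded La-module that binds RNA (ΔLa-module), and without the N-terminal region and the La-module together (ΔNTD). Each variant had 1 deposited peak list pooled from 3 iCLIP samples, with peaks called in the parental line removed. Each of the 6 lines had 1 paired-end library of 150 nt reads of total RNA, called the input here. With 1 pooled list and 1 input library per line there was no replicate spread to test against, so no test was run, and every interval below covers counting error only at the 95% level.

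Initiation is the step at which a ribosome is loaded onto an mRNA and finds its start codon. The eIF2 complex brings the initiator tRNA and is recharged by eIF2B, eIF1 and eIF1A keep the small subunit scanning, and eIF3 is the large scaffold on that subunit. The eIF4F complex of cap-binding eIF4E, scaffold eIF4G and helicase eIF4A recruits the mRNA, 4E-BPs compete for eIF4E, and eIF5 and eIF5B act when the start codon is met and the large subunit joins. The members here are the mRNAs that encode these proteins, and their peaks say where LARP6 was crosslinked to them.

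Full-length LARP6 had 108 peaks in 26 of the 52 initiation factor genes, and the signal was concentrated in a few of them. EIF4G2, EIF5, EIF3B and EIF4G1 together held 64.2% of the members' summed peak score in FL and 33.7% of the members' input counts. The peak score is the value the authors deposited, summed over the 3 samples and not scaled to depth, with a minimum of 3. The ΔNTR list had 146 peaks in 29 members and the ΔCTR list 119 peaks in 24 members. The lists of both variants that lack the La-module were almost empty over the members: ΔLa-module had 4 peaks in 4 members and ΔNTD 1 peak in 1 member. Over all genes the ΔLa-module list held 636 peaks and the ΔNTD list 291, whereas FL held 14334, ΔCTR 15870 and ΔNTR 17180.

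The bases under the highest FL peak of 6 members are shown to let the sites be compared, each written 5′ to 3′ on the strand of the gene from the GRCh38 genome, at most 30 bases around the peak centre, with runs of at least 4 pyrimidines in capitals. The EIF5 site lies at chr14:103341522-103341551 (+) in the 3'UTR and the EIF4G2 site at chr11:10802190-10802219 (-) in the CDS. The EIF3B site lies at chr7:2380518-2380547 (+), the EIF4H site at chr7:74195779-74195808 (+) and the EIF5A site at chr17:7312160-7312189 (+), all in 3'UTRs. The EIF2S3 site lies at chrX:24054953-24054980 (+) in the 5'UTR and runs over the start codon.
EIF5: attaatttattcagcccattaagaaagtac
EIF4G2: gtaTTTTaaggtagcggaattggtactggt
EIF3B: cgccactggcggcaCCTTCTCCTgcgccca
EIF4H: caaaaaccagagtcactgacagagggaaca
EIF2S3: TTCCTCTTTTggcaacatggcgggcgga
EIF5A: tctggcaaatggTCCTTgtgCCCTCCCCac
The pyrimidine content of these windows was highest in EIF3B and EIF5A, at 66.7%, and lowest in EIF4H. Over all member peaks, the mean pyrimidine content of 31 nt around the centre was 51.6% ± 13.0 (SD over 108 peaks) for FL, 50.5% ± 13.0 for ΔNTR and 51.2% ± 12.4 for ΔCTR. The means over the peaks of all protein-coding genes were 52.5%, 52.8% and 52.0%, each above the mean of the members by much less than the SD. By region, the FL members were lower in the CDS (47.2% against 49.9%) but higher in the 3'UTR (54.8% against 54.2%) and 5'UTR (58.1% against 54.4%). The ΔNTR members were lower in the CDS and both UTRs, and the ΔCTR members in the CDS and 3'UTR only.

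Next, the number of members with a peak was set against all protein-coding genes of like abundance. Input levels are given as CPM, counts scaled to library size with TMM factors, and 44 members reached 10 CPM in the mean of the 6 libraries. Of these 44, 26 had an FL peak (59.1%, Wilson interval 44.4 to 72.3) against 47.8% of all 9096 protein-coding genes at that level. In ΔNTR it was 29 of 44 (65.9%, 51.1 to 78.1) against 49.0%, and in ΔCTR 24 of 44 (54.5%, 40.1 to 68.3) against 50.8%. The ΔLa-module list had a peak in 4 of 44 against 4.57% of all, and the ΔNTD list in 1 of 44 against 2.44%. The members of at least 10 CPM were more abundant than the other genes at that cutoff, with a median of 139 CPM against 49.5 CPM. At a cutoff of 100 CPM, 23 of 28 members had an FL peak against 83.1% of 2383 genes, and 23 of 28 a ΔNTR peak against 83.9%. The ΔCTR count was 19 of 28 (67.9%, 49.3 to 82.1) against 86.4%. The FL and ΔNTR shares were close to the background at this level, and the ΔCTR share was below it. The 9 members of at least 100 CPM without a ΔCTR peak were the eIF3 subunits EIF3A, EIF3F, EIF3G, EIF3I, EIF3J and EIF3L, and EIF1AX, EIF2S2 and EIF5B. Of these 9, 6 had an FL peak, of 1 or 2 peaks each.

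**Figure D1:**
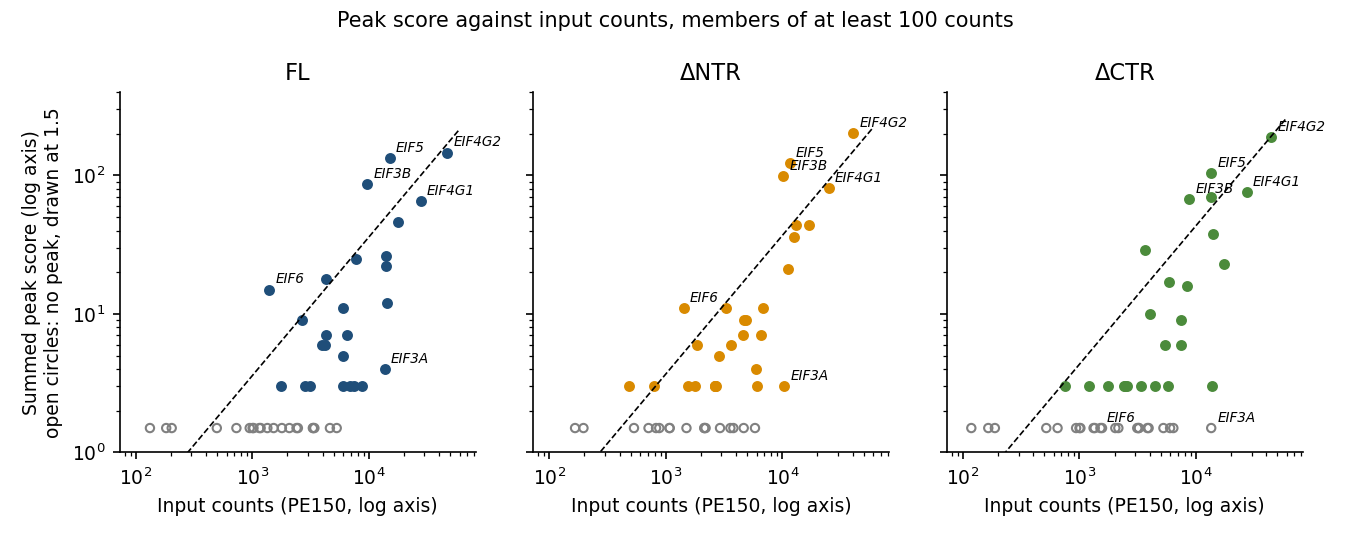
Summed peak score of each member (y, log axis) against its input count in the same line (x, log axis) in the FL, ΔNTR and ΔCTR lists, for members of at least 100 counts; open circles are members without a peak, drawn at 1.5, and the dashed line is the pooled ratio of all protein-coding genes. EIF5 and EIF3B lie above the line in all 3 lists, while EIF3A, at 4, 3 and 0, lies far below it.

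Peak score relative to input followed the same uneven pattern. Pooled over the members of at least 100 input counts, the score per 1000 counts was 2.27 with FL, 3.02 with ΔNTR and 2.44 with ΔCTR, and over all protein-coding genes it was 3.59, 3.69 and 4.33. Thus the pooled members carried less score per input count than all protein-coding genes pooled, in each of the 3 lists. The median over single genes, with or without a peak, was 0.399, 1.13 and 0.218 for the members in FL, ΔNTR and ΔCTR, against 0.0 over all genes counted in each list. This contrast reflects only how many genes had a peak. In FL these were 26 of 47 members counted and 4464 of 10552 genes, and the members were more abundant. Among members with a peak, the median score per 1000 counts was 1.61 in FL against 3.54 over all genes with a peak. These 2 medians are not like for like. A peak scores at least 3, so a gene with few counts and any peak has a high value, and the members were more abundant. Single members stood above the pooled value of all genes. EIF6, an anti-association factor of the large subunit, had 10.8 per 1000 counts in FL, EIF3B had 8.89 and EIF5 had 8.86, which placed them above 93.7%, 91.9% and 91.8% of all protein-coding genes counted. Genes without a peak are part of that base, and any gene with a peak ranks above them. The EIF6 value came from 4 weak peaks with a summed score of 15 over 1386 counts, and EIF6 had no ΔCTR peak. EIF3A, the largest eIF3 subunit, had 0.294 from 13619 counts. As a share of the whole list, member score was highest for ΔNTR, at 0.822%, followed by FL at 0.653% and ΔCTR at 0.581%. The sparse ΔLa-module and ΔNTD lists gave 0.56% and 0.3%. The ΔNTR share was 1.26 times the FL share (exact binomial interval 1.13 to 1.4) and the ΔCTR share 0.89 times (0.799 to 0.991). These intervals treat units of score as independent counts, which they are not, so they are too narrow.

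**Figure D2:**
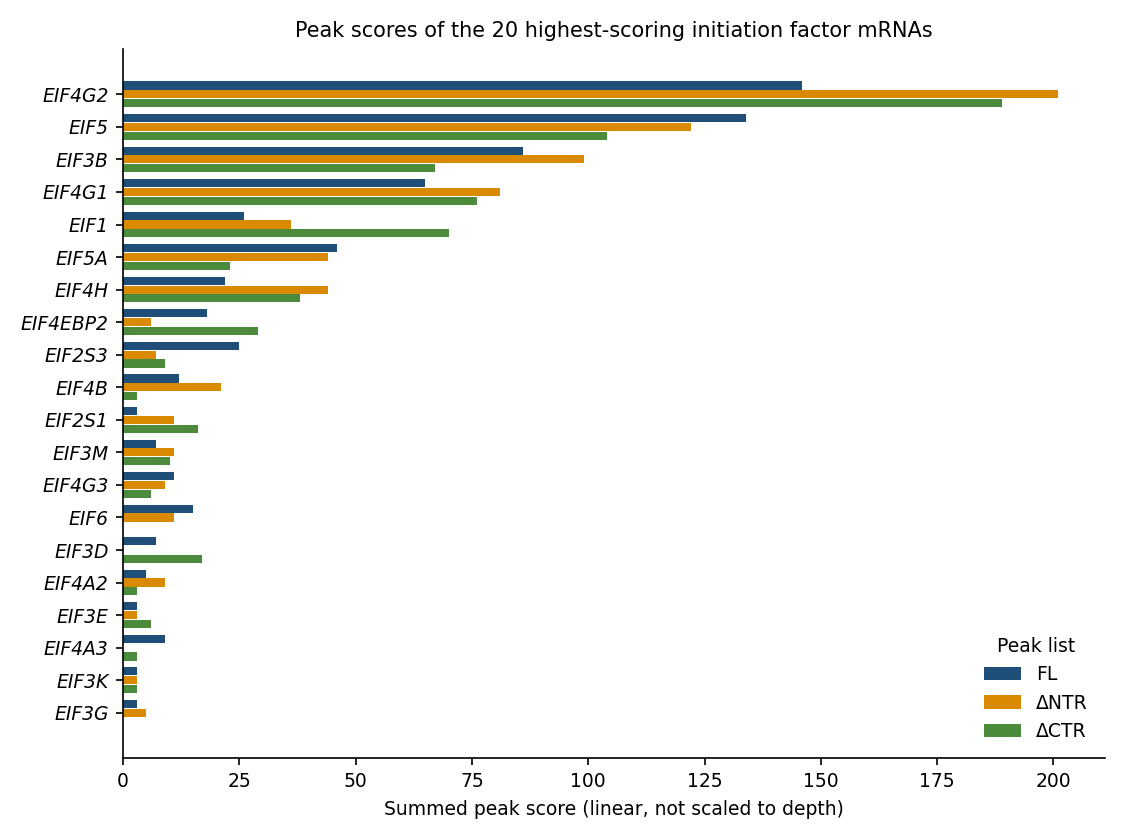
Summed peak score (x, linear) of the 20 initiation factor genes with the highest total over the FL, ΔNTR and ΔCTR lists, with 1 bar per list. EIF4G2, EIF5, EIF3B and EIF4G1 lead in FL, and EIF1 reaches 70 in ΔCTR against 26 in FL.

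The eIF4F scaffolds and their relatives held the largest part of the signal. EIF4G2, which encodes the eIF4G homologue DAP5 that lacks the eIF4E-binding part, had 22 peaks with a summed score of 146 (FL), 33 peaks with 201 (ΔNTR) and 25 peaks with 189 (ΔCTR). It was the highest-scoring member in all 3 lists and also the member with the highest input count, between 40416 and 50170 in the 6 libraries. Relative to input, its score per 1000 counts was 3.09 with FL, 4.97 with ΔNTR and 4.29 with ΔCTR, against pooled values of 3.59, 3.69 and 4.33 over all genes. It was thus above the pooled value with ΔNTR only. In FL it exceeded 76.6% of the single genes counted, but most of those had no peak. Its FL value was below 3.54, the median of the genes with an FL peak. Its strongest site was in the CDS, 1142 nt after the start codon, with scores of 48, 27 and 37 in FL, ΔNTR and ΔCTR. The ΔNTR score there was 0.562 times the FL score (0.337 to 0.92), not scaled to list total or input. That interval held 0.697, the ratio over sites of all protein-coding genes with a peak in all 3 lists. A neighbouring CDS site 867 nt after the start codon scored 15, 15 and 19. The annotated start codon of EIF4G2 is GTG, the non-AUG codon for which this gene is known, and a site in the 5'UTR lay 171 nt before it. The 3 lists scored 9 (FL), 24 (ΔNTR) and 11 (ΔCTR) there, and the ΔNTR value was 2.67 times the FL value (1.2 to 6.52). The single ΔLa-module peak of EIF4G2, with the minimum score of 3, fell on the same 5'UTR site, and the single ΔNTD peak, also 3, lay in the CDS.

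EIF4G1, the main scaffold of eIF4F, had a flatter profile. It had 14, 16 and 18 peaks in FL, ΔNTR and ΔCTR with summed scores of 65, 81 and 76, and no single peak scored above 10. Its highest shared site was in the CDS with scores of 7, 15 and 10, and a site in the 3'UTR, 167 nt after the stop codon, scored 10 with FL, 10 with ΔNTR and had no ΔCTR peak. The third scaffold gene, EIF4G3, had scores of 11, 9 and 6. The helicase gene EIF4A2 had 5, 9 and 3, and EIF4E, the cap-binding protein, had no FL peak and a score of 3 in both ΔNTR and ΔCTR. EIF4E2, a cap-binding homologue at 86.4 CPM, had no peak in FL, ΔNTR or ΔCTR. EIF4A1 also had none, but its counts of 165 to 240 may not measure its abundance well. Of its exon sequence, 47.4% also lies in exons of another gene on the same strand, and reads that meet 2 genes were not counted to either. How many EIF4A1 reads were left out this way was not tested.

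**Figure D3:**
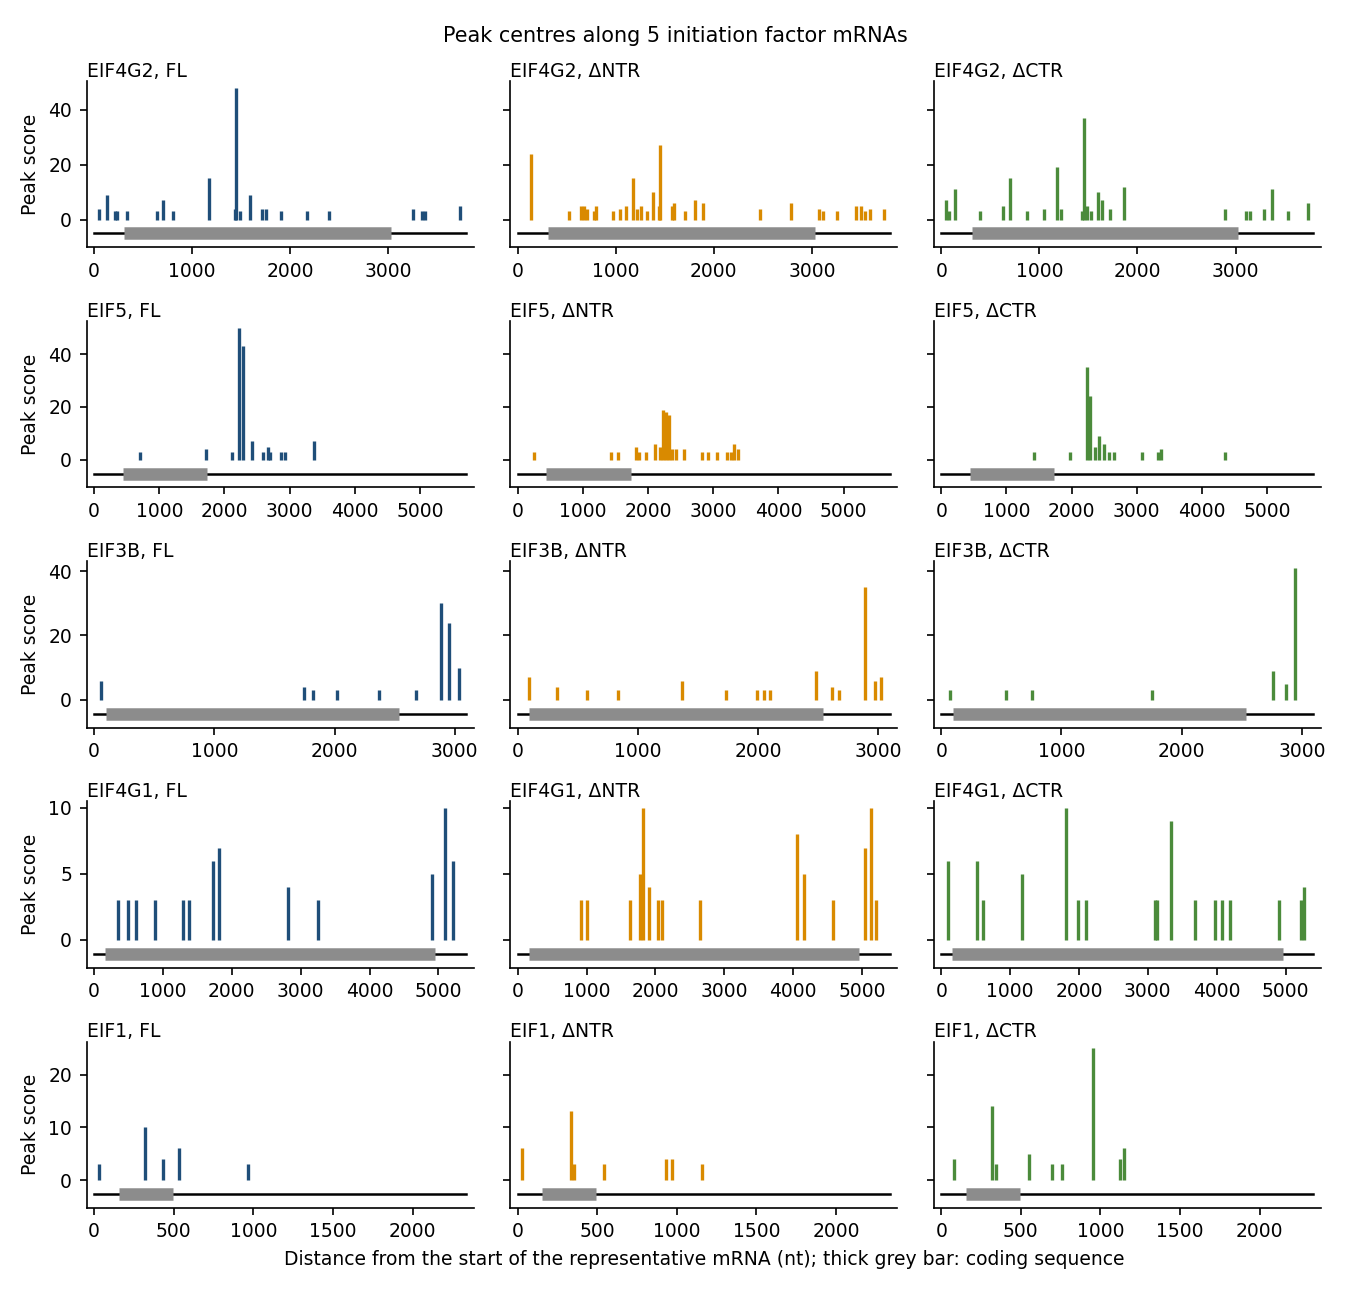
Centres of peaks (x, distance in nt from the start of the representative mRNA) and their scores (y) in EIF4G2, EIF5, EIF3B, EIF4G1 and EIF1 (rows) for the FL, ΔNTR and ΔCTR lists (columns); each vertical line is 1 peak, the y axis is shared within a row, the grey bar is the coding sequence, and peaks outside the representative mRNA are left out. EIF5 and EIF3B peak in the 3'UTR, EIF4G2 peaks in the CDS, and the highest line of EIF1, at 25, belongs to ΔCTR.

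EIF5, EIF5B and the anti-association factor EIF6 were grouped here for their roles around subunit joining and are not 1 complex. Together they had 7.56 units of score per 1000 input counts in FL and 8.38 in ΔNTR, the highest of the gene groups in these lists. In ΔCTR they had 5.49. Most of the score came from EIF5. EIF5, the GTPase-activating protein of eIF2, had 12, 21 and 13 peaks with summed scores of 134, 122 and 104. Adjoining peaks in its 3'UTR held most of the FL score. The site 488 nt after the stop codon scored 50 with FL, 24 with ΔNTR and 35 with ΔCTR, and the next, 546 nt after the stop codon, scored 43, 18 and 24. The ΔNTR scores were 0.48 (0.282 to 0.796) and 0.419 (0.227 to 0.741) times the FL scores, not scaled to list total or input. Both intervals held 0.697, the ratio over sites of all protein-coding genes with a peak in all 3 lists. A further 3'UTR peak just downstream, of score 17, was in the ΔNTR list alone. The summed score of EIF5 nevertheless made up 13.0 of 10000 units of list score in FL and 13.1 in ΔNTR. EIF6 had scores of 15 in FL and 11 in ΔNTR, in its 5'UTR and CDS, and no ΔCTR peak. EIF5B, the GTPase that joins the subunits, had 2 FL peaks of 3 each and none in ΔNTR or ΔCTR.

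Of the 14 eIF3 genes, 9 had an FL peak, 9 a ΔNTR peak and 6 a ΔCTR peak, but EIF3B alone gave 86 of the 122 units of score in FL. EIF3B, a core scaffold subunit, had 9, 15 and 7 peaks with summed scores of 86, 99 and 67. Its strongest signal was in the 3'UTR, 403 nt after the stop codon and close to the end of the mRNA, where FL had a score of 54 in 2 peaks, ΔNTR 41 in 2 and ΔCTR 46 in 2. The ratios to FL were 0.759 (0.493 to 1.16) and 0.852 (0.562 to 1.29), and both intervals held 1. EIF3D, the subunit that can itself bind the cap, had scores of 7, 0 and 17, and 1 ΔLa-module peak of 3 in its CDS. EIF3A had the highest ΔLa-module score of any member, at 4. EIF3M had 7, 11 and 10, and no other eIF3 gene passed 6 in any of these lists. EIF3C and EIF3CL, which are near-identical copies, had no peak, and reads shared between them could not be assigned to either.

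The eIF2 subunit genes had few peaks, and EIF2S3, which encodes the GTP-binding γ subunit, differed most between the lists. Its score was 25 with FL, 7 with ΔNTR and 9 with ΔCTR. A single FL peak of 16 at the mRNA start, 2 nt before the start codon at its centre, had no counterpart in either deletion. The remaining EIF2S3 peaks scored 3 or 4 in all 3 lists. EIF2S1, the α subunit that is phosphorylated under stress, had 3, 11 and 16, and EIF2S2 a single FL peak of 3 in an intron. Of the 5 genes for eIF2B, the exchange factor of eIF2, only EIF2B1 (6 in ΔNTR) and EIF2B2 (3 in FL) had a peak in these 3 lists. EIF2B3, EIF2B4 and EIF2B5, at 36.1, 25.1 and 51.1 CPM, had none.

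EIF1, the gatekeeper of start codon selection, had 26 units of score with FL, 36 with ΔNTR and 70 with ΔCTR. A CDS site was shared at 10, 13 and 17. A 3'UTR site 463 nt after the stop codon scored 3 with FL, 8 with ΔNTR and 25 with ΔCTR, a ratio of 8.33 for ΔCTR over FL with a wide interval of 2.54 to 43.1. EIF1AX had only 2 ΔNTR peaks with a score of 7. The helicase cofactor genes EIF4H and EIF4B had 22, 44 and 38, and 12, 21 and 3. EIF4H had its main site in the 3'UTR at 19, 17 and 13, and EIF4B had its highest peak, of 10, in the 3'UTR in ΔNTR alone. EIF4EBP2, a 4E-BP, had 18, 6 and 29, and its main 3'UTR site scored 7 in FL, 17 in ΔCTR and had no peak in ΔNTR. EIF5A, which encodes a factor best known for elongation, had 46, 44 and 23, with a run of FL peaks of 10, 9, 7, 3 and 14 along its 3'UTR.

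The 250 merged sites of the members over FL, ΔNTR and ΔCTR were mostly weak. Of these, 170 were in 1 list only (68.0%, 62.0 to 73.5, against 76.9% of sites in all protein-coding genes), 51 in 2 lists and 29 in all 3. All 12 member sites with a summed score of at least 30 were in all 3 lists, as were 95.4% of such sites in all protein-coding genes. The sum ran over the same 3 lists, so a site in more lists reaches this cutoff more easily. The 29 sites present in all 3 lists lay in 10 genes, and their summed scores were 368 (FL), 302 (ΔNTR) and 341 (ΔCTR). ΔNTR was therefore at 0.821 of FL (0.702 to 0.958) on shared sites, against 0.697 over all protein-coding genes, while its total over all member peaks was higher than that of FL. Shared sites were defined by a peak in each list, so their ratios describe only sites that every list retained. Of the 108 FL member peaks, ΔNTR overlapped 48 (44.4%, 35.4 to 53.8), against 35.2% of FL peaks in all protein-coding genes, and ΔCTR overlapped 44 (40.7%, 31.9 to 50.2), against 37.7%. Of the 13 FL member peaks that scored at least 10, ΔNTR overlapped 12, against 88.4% of such peaks in all protein-coding genes, and ΔCTR overlapped 9 (69.2%, 42.4 to 87.3), against 93.2%. ΔNTR had 94 member peaks that did not touch an FL peak, and 30 of these were at most 100 nt away from one (31.9%, 23.4 to 41.9), against 23.8% over all protein-coding genes. For ΔCTR it was 23 of 76 (30.3%, 21.1 to 41.3), against 21.7%.

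Member peaks were assigned to regions over all annotated transcripts, with CDS taken before 5'UTR and 5'UTR before 3'UTR. In FL, 52 of 108 lay in the CDS (48.1%, 39.0 to 57.5), against 37.7% of peaks in all protein-coding genes, and 43 in the 3'UTR (39.8%, 31.1 to 49.2), against 49.3%. The 52 CDS peaks lay in 18 genes. EIF4G2 and EIF4G1, with 22 and 14 FL peaks that were mostly in the CDS, supplied a large part of them. The intervals treat peaks of the same gene as independent, so they are too narrow. In ΔNTR the CDS share was 43.2% (35.4 to 51.3) and in ΔCTR 41.2% (32.7 to 50.2), both with intervals that held the 38.1% and 38.3% of all protein-coding genes. The 3'UTR shares there were 48.6% and 49.6%. When 3'UTR was taken before CDS, the CDS share of the members was 26.9% (19.4 to 35.9), 23.3% (17.2 to 30.8) and 20.2% (13.9 to 28.3) in FL, ΔNTR and ΔCTR, against 27.1%, 27.5% and 27.1% of all protein-coding genes. The higher FL share in the CDS was thus not present under that ranking, whereas on representative transcripts alone it was 48.1% against 36.8%. By score, the order in FL was the other way, with 51.9% of member score in the 3'UTR and 38.5% in the CDS. The 5'UTR share was 9.26% in FL (5.11 to 16.2) against 4.68%, 5.48% in ΔNTR (2.8 to 10.4) against 4.42%, and 6.72% in ΔCTR (3.45 to 12.7) against 2.88%. Introns held 3, 4 and 3 peaks.

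Peaks at mRNA starts were examined because many mRNAs of the translation machinery begin with a 5' terminal oligopyrimidine (TOP) tract. A peak centred within 50 nt of an annotated transcript start was found in 9 of the 44 members of at least 10 CPM with FL, 6 with ΔNTR and 5 with ΔCTR, against 4.66%, 4.83% and 3.81% of all genes at that level. At 100 CPM it was 7, 5 and 4 of 28, against 12.3%, 13.0% and 10.7%. Many of these starts belong to internal or alternative transcripts. When only the start of the representative transcript was allowed, a choice made after seeing the data, the counts were 5, 4 and 2 of 44. All genes of at least 10 CPM, which were less abundant than the members, gave 2.51%, 2.7% and 1.85%. The members counted were EIF1, EIF2S3, EIF4G2, EIF5A and EIF6 in FL, EIF1, EIF4G2, EIF5A and EIF6 in ΔNTR, and EIF2A and EIF4G2 in ΔCTR. The peak of EIF3B was 5 nt from an alternative start and 60 nt from the representative one. EIF4G1, EIF2B2 and EIF3G had start-proximal peaks by alternative starts only. The first 20 bases of the representative transcripts are shown for these genes and for EIF3F and EIF4B, whose mRNAs are known TOP mRNAs, with the leading run of pyrimidines in capitals.
EIF2S3, chrX:24054956-24054975 (+): CTCTTTTggcaacatggcgg
EIF2A, chr3:150546787-150546806 (+): CTCTTTCCgggacaacatgg
EIF1, chr17:41688885-41688904 (+): gccccagtcactgagccgcc
EIF4G2, chr11:10808907-10808926 (-): gccagcagtgagtcggagct
EIF5A, chr17:7307628-7307647 (+): gtactaagacccgtgtgcag
EIF6, chr20:35284753-35284772 (-): agtccaaggtacagtcgccg
EIF3F, chr11:7987337-7987356 (+): CTTCTTTCTCgacaagatgg
EIF4B, chr12:53006456-53006475 (+): CTTTTgcgttctctttccct
EIF2S3 begins with a run of 7 pyrimidines and EIF2A with 8, while EIF1, EIF4G2, EIF5A and EIF6 begin with a purine. EIF3F and EIF4B begin with 10 and 5 pyrimidines and had no peak within 50 nt of a start in any list, nor had the known TOP mRNAs of EIF3E and EIF3H. EIF3E came close to this cutoff. Its only FL peak and its only ΔNTR peak, each of score 3, were centred at nt 56 and 67 of the representative mRNA. The ΔCTR peaks of EIF3E lay farther along the gene. Of the 5 members with an FL peak at the representative start, only EIF2S3 began with such a run. The EIF5A peaks lay upstream of the representative start and 10 nt or less from an alternative one, and whether the annotated starts are those used in these cells was not tested.

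A deletion was compared with FL by the share of the list score that a gene held. The value is the log2 ratio of the 2 shares, after adding 1 to each score, minus the log2 ratio of the gene's input CPM, and genes needed 20 units of score in the 2 lists together. For ΔNTR, 12 members could be compared. EIF4B (log2 1.09) and EIF4H (1.02) were at least 2-fold higher and EIF2S3 (-1.50) and EIF4EBP2 (-1.23) at least 2-fold lower, so 2 of 12 stood on each side, against 14.3% and 15.8% of 1700 protein-coding genes. The counting intervals of the raw share ratio were 0.909 to 4.31 for EIF4B, 1.3 to 3.87 for EIF4H, 0.113 to 0.736 for EIF2S3 and 0.12 to 0.969 for EIF4EBP2. EIF4G2, the next highest, had a log2 change of 0.66, and EIF6, the next lowest, -0.47. The median over the 12 members was 0.17, against 0.01 over all genes compared. For ΔCTR, 10 members could be compared. EIF1 (1.18) and EIF3D (1.06) were at least 2-fold higher, against 11.6% of 1855 genes, and EIF2S3 (-1.58) and EIF5A (-1.21) at least 2-fold lower, against 10.2%. Their raw share ratios were 2.33 (1.47 to 3.81), 2.1 (0.828 to 6.0), 0.312 (0.128 to 0.69) and 0.433 (0.25 to 0.729). The next in each direction were EIF4EBP2 at 0.62 and EIF5 at -0.47. Both comparisons use the same FL list. The 2 of 12 members on each side for ΔNTR were close to the rates over all genes, and 2 of 10 for ΔCTR is too small a count to be told from them. EIF3B changed by 0.11 in ΔNTR and -0.46 in ΔCTR, and EIF4G1 by 0.45 and -0.01.

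The input showed that the initiation factor mRNAs themselves hardly differed between the lines. Each library held between 25027075 and 28692476 gene counts, of which the 52 members made up 1.01% to 1.09%. None of the 50 members of at least 1 CPM was 2-fold changed against parental in any line. Of all 11680 protein-coding genes, 0.788% passed 2-fold in ΔNTR, 0.428% in ΔLa-module, 0.368% in ΔNTD, and 0.0599% in each of FL and ΔCTR. At 1.5-fold, no member was changed in FL (0.497% of all genes higher, 0.317% lower), in ΔLa-module (1.55% and 0.899%) or in ΔNTD (1.34% and 1.07%). In ΔNTR, 1 member was higher, against 3.51% of all genes, and none lower, against 0.985%. In ΔCTR, 1 member was higher, against 0.591%, and 1 lower, against 0.36%, and both of these, EIF5AL1 and EIF4E3, had under 2 CPM in every library. The median log2 change of the members lay between -0.07 in ΔNTR and 0.02 in ΔLa-module, with a pseudocount of 1 CPM. Of the 44 members of at least 10 CPM, 32 were below 0 in ΔNTR, against 55.2% of all protein-coding genes at that level, and the median over all genes there was -0.02. The FL line had 20 members below 0, against 50.5% of all genes, and the ΔCTR line 24, against 52.2%. The ΔLa-module line had 19, against 53.8%, and the ΔNTD line 20, against 49.1%.

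The member past 1.5-fold in ΔNTR was EIF4EBP1, the main 4E-BP. Its level was 38.5 CPM in the parental library and 40.9 with FL. It was 44.7 CPM with ΔCTR, 49.3 with ΔNTD, 54.7 with ΔLa-module and 62.3 with ΔNTR. All 5 variant lines were thus above parental, FL least and ΔNTR most. The ΔNTR library was 1.62-fold above parental (1.5 to 1.76) and the ΔLa-module library 1.42-fold (1.31 to 1.54). In contrast, EIF2B5, the catalytic subunit of eIF2B, had 59.2 CPM in the parental library and 54.2 with FL. It had 51.2 CPM with ΔLa-module, 50.0 with ΔCTR, 49.0 with ΔNTD and 43.2 with ΔNTR, so every variant line was below parental. Its ΔNTR level was 0.729 times the parental level (0.674 to 0.788), and EIF2B4, a regulatory eIF2B subunit, was at 0.76 (0.679 to 0.851) there. EIF3B had 405.8 CPM in ΔNTR and 312.6 to 349.5 CPM in the other lines. Within each other line, the members of at least 10 CPM can be ranked by their log2 change against parental. The lowest member of the ΔCTR line was EIF3C, at -0.25, although EIF3C itself was lower in ΔNTR, at -0.32. The lowest member of the ΔLa-module line was EIF4A2, at -0.29. EIF5B ranked first in the FL line and in the ΔCTR line, at 0.28 in both, followed by EIF2S2 in FL at 0.18 and EIF6 in ΔCTR at 0.27. EIF1AX ranked first in the ΔNTD line, at 0.37, while EIF4ENIF1 was at -0.18 there. The 2 lowest members of the FL line were EIF5A2 and EIF3G, at -0.17 and -0.16. With 1 library per line, these differences cannot be told apart from differences between single libraries, nor, in bulk RNA, can a change in RNA per cell from a change in the number of cells that express the gene.

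**Figure D4:**
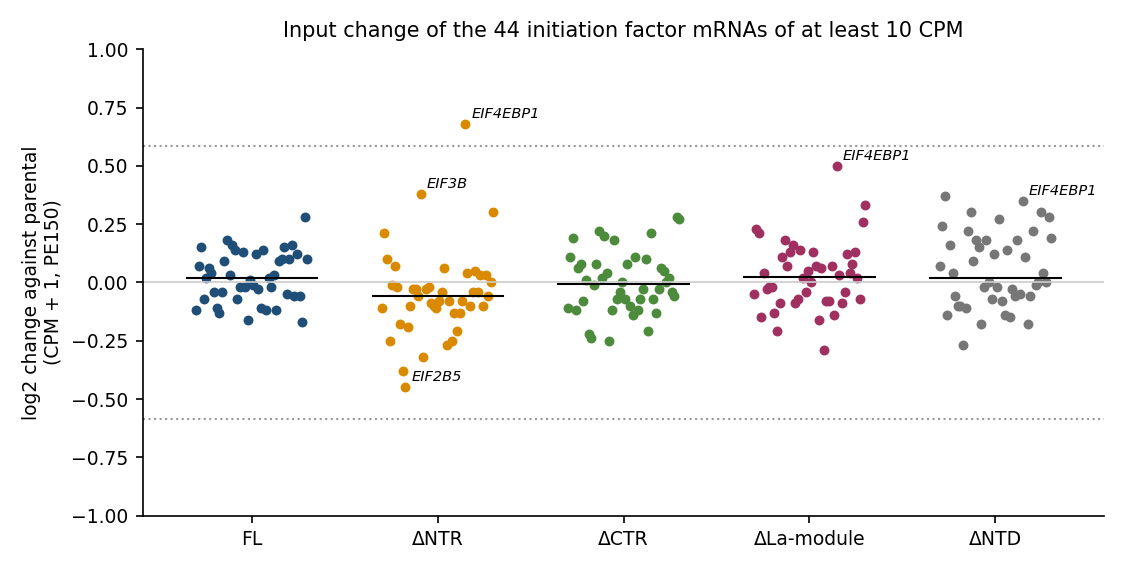
log2 change of CPM + 1 against the parental library (y) in the 5 variant lines (x) for the 44 members of at least 10 CPM; each point is 1 gene in 1 library, the black lines are medians and the dotted lines mark a 1.5-fold change. All points but EIF4EBP1 in ΔNTR, at 0.68, lie between the dotted lines.

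Levels per kilobase of exon sequence were highest for EIF5A (245.8 CPM per kb), EIF4G2 (196.7), EIF1 (143.8) and EIF4G1 (114.2). Exon sequence was the union over all annotated transcripts, which for EIF3B was 8989 nt against a representative mRNA of 3096 nt. These levels and their order thus depend on the annotation. EIF5, at 63.2, and EIF3B, at 38.6, had higher summed scores than EIF5A and EIF1 in FL and ΔNTR at lower levels per kilobase, while in ΔCTR EIF1, at 70, was above EIF3B, at 67. EIF4E1B had no count in any library, which allows up to 3 counts per library. The 8 members under 10 CPM were EIF4A1, EIF4E1B, EIF4E3, EIF4EBP3, EIF1AY and the copies EIF2S3B, EIF3CL and EIF5AL1, and none had a peak in FL, ΔNTR or ΔCTR. Besides these 8, 6 members of at least 10 CPM had no peak in those lists, which were EIF4E2, EIF2B5, EIF2D, EIF3C, EIF2B3 and EIF2B4. An absent peak may also be one removed with the parental peaks, so it does not show that LARP6 was absent.

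Finally, 27 other genes of the pathway were read the same way: the eIF2α kinases and phosphatase subunits, poly(A)-binding proteins, mTOR pathway genes, and other initiation helpers. All 27 reached 10 CPM. FL peaks were in 12 of them with a summed score of 501, against 47.8% of all genes at that level with a peak. ΔNTR peaks were in 18 with a score of 378, against 49.0%, and ΔCTR peaks in 18 with 588, against 50.8%. ΔLa-module peaks were in 3, against 4.57%, and ΔNTD peaks in 2, against 2.44%. DDX3X, a helicase of initiation, had scores of 129, 84 and 137 in FL, ΔNTR and ΔCTR, and PABPC1, the poly(A)-binding protein that contacts eIF4G, had 113, 68 and 133. In the input, only MKNK2, a kinase of eIF4E, passed 1.5-fold, at a log2 change of 0.80 in ΔNTR. The cell line was checked by its markers. VIM and CD44 were abundant, at means of 7509 and 2182 CPM, and NES was at 55.1 CPM, whereas the glial genes SOX2, S100B and GFAP were at most at 0.24 CPM in any library and OLIG2 was at a mean of 2.07 CPM. The immune marker PTPRC and the neuronal marker RBFOX3 had means of 0.0488 and 0.0549 CPM, EPCAM and PECAM1 1.82 and 1.56 CPM, and SYT1 8.88 CPM. The input counts of LARP6 do not check the labels, because the introduced LARP6 was codon-optimised.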

How the data were processed

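The 18 iCLIP and 12 input samples were grouped by the labels alone. The authors trimmed reads and aligned them to GRCh38 with STAR, with version 2.7.10b stated for total RNA. For iCLIP they discarded rRNA and tRNA reads before alignment and removed duplicates after it. They then called peaks with Clippy in each replicate, summed the scores of 3 replicates and subtracted parental peaks with bedtools 2.30.0. The deposited BED score is that sum. The deposited counts are STAR gene counts, of which the reverse-strand column of the 150 nt libraries was used (25027075 to 28692476 per library). The 50 nt libraries gave the members 373 to 655 counts each and served as an alternative only.

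From these files, peaks were assigned by their centre to same-strand genes of GENCODE 44, and 62625 of 62703 count identifiers matched. Input changes used TMM (edgeR 4.0.16, R 4.3.3) with a pseudocount of 1 CPM, and the other steps Python 3.11.15 with pandas 2.3.3 and bedtools 2.31.1. Intervals are Wilson, exact Poisson or exact binomial and cover counting error only. No test was run, since lists are pooled and each line has 1 input library. The functions were tested on simulated data. DESeq2 1.42.0 size factors were an alternative. The members, gene lists and thresholds were chosen with earlier results of these data known. Named genes were the 12 members of highest summed score, those with a ΔLa-module or ΔNTD peak, a 5'UTR or start-proximal peak, the 3 highest and lowest share changes, the extremes of the input, and abundant members without a peak.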

Additional observations from a re-analysis of the deposited data

How the results depend on the processing

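No paired analysis was possible because each peak list pools its replicates and each line has 1 input library, and leaving out single replicates was not possible either. Under 22 alternatives, 514 of 570 values stayed in their interval or in 1.5 times the count, and 56 moved. Only share changes of at least 2-fold could count as reversed, and none did. Some values could not move under an alternative, such as summed member scores when only the list total changed, so the tally overstates stability. With peaks above 3 only, FL and ΔNTR each had 16 members with a peak, ΔCTR 11, ΔLa-module 1 (score 4) and ΔNTD 0 (score 0, 0.0%), members with a start-proximal peak were 5 in FL and 2 in ΔCTR, and the ΔCTR share of score was 0.508%. Without the top 1% of peaks in the total, the shares were 0.797%, 0.944% and 0.713% in FL, ΔNTR and ΔCTR, and on a narrow list of 41 members 0.582%, 0.758% and 0.527%. With 3'UTR before CDS, the CDS shares were 26.9%, 23.3% and 20.2% and the 3'UTR shares 61.1%, 68.5% and 70.6%. An overlap of 50% of both peaks left 29.6% of FL peaks met by ΔNTR and 31.5% by ΔCTR. Members at least 2-fold higher in share were 1 for ΔNTR without the top 1% of peaks, without the abundance term or at a minimum summed score of 50, and 0 with a pseudocount of 5, and 1 for ΔCTR under the last 3 of these. Members at least 2-fold lower were 1 for ΔNTR with a pseudocount of 5 or on the narrow list, and 0 at a minimum of 50, and 1 for ΔCTR at a minimum of 50 or on the narrow list. At 100 nt, 2 ΔLa-module members had a start-proximal peak, and with representative starts only 5 in FL and 2 in ΔCTR. With a pseudocount of 0.1 CPM, 2 members were 1.5-fold higher and 1 lower in ΔNTR, 1 higher and 1 lower in ΔLa-module, 1 higher in ΔNTD, and 1 each was 2-fold higher and lower in ΔCTR, where low counts weigh more. In the 50 nt libraries, over 12 members, 2 were 1.5-fold higher in FL, 2 in ΔLa-module, 1 in ΔNTD and 0 in ΔCTR, and 1 was lower in ΔNTR and 0 in ΔCTR. On the narrow list, which lacks EIF4EBP1 and EIF5AL1, 0 were 1.5-fold higher in ΔNTR and in ΔCTR. The cause of the other moves was not tested.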
